A study of Mus musculus with 6 samples.

Results

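The 9 genes described here encode the vascular endothelial growth factor (VEGF) ligands and receptors: the ligands Vegfa, Vegfb, Vegfc, Figf (the gene now named Vegfd) and Pgf, the receptor tyrosine kinases Flt1, Kdr and Flt4, and the co-receptor Nrp1. They were picked out of 24346 symbols by gene symbol, as a family and with earlier results of these data known, and all 9 passed the filter on low expression. The RNA came from primary stromal cells cultured from prostates of C57BL/6 mice 8 to 12 weeks of age. Of the 6 libraries, 3 came from cells infected with the empty FU-CGW lentiviral vector (vector group) and 3 from cells infected with that vector carrying the cDNA of S37A β-catenin, a form whose changed serine removes a phosphorylation site used to mark β-catenin for degradation (S37A group). Both groups were grown on collagen in medium with serum and 1e-10 M dihydrotestosterone. Cells that had not attached 30 min after replating were discarded, and cells were used within 3 weeks of dissociation. This is a primary culture and not a cloned line, so other cells of the prostate can remain in it, and whether infected cells were sorted is not given in the sources used here. Separate cultures or animals are not stated for the 3 libraries of each group, so p-values measure the spread between these libraries, which may be technical.

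VEGF ligands are secreted dimers that bind receptor tyrosine kinases best known from endothelial cells. Vegfa acts through Flt1 (VEGF receptor 1) and Kdr (VEGF receptor 2, the main signalling receptor of blood vessels). Vegfb and Pgf (placental growth factor) bind Flt1, and Vegfc and Figf act mainly through Flt4 (VEGF receptor 3), the receptor of lymphatic vessels. Nrp1 (neuropilin 1) binds several ligands together with these receptors and is also a receptor for class 3 semaphorins. In most tissues stromal cells are a source of the ligands, and endothelial cells carry the kinase receptors.

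The ligands are made in several forms by alternative splicing, and the deposited tables hold separate transcript models for Vegfa and Vegfb that differ by the exons printed here. They are shown because the model values reported further on differ only in these bases. Capitals mark the alternative bases and lower case the 18 bases joined on each side in the spliced transcript, from GENCODE M21 on the minus strand of GRCm38. The coordinates are those of the bases in capitals, except for the last line, which has none and spans the joined ends.
Vegfa 72-base exon, chr17:46022277-46022348: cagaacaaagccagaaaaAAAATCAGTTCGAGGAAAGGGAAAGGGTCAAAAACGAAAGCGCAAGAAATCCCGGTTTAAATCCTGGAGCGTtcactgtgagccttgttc
Vegfa 132-base exon, chr17:46020991-46021122: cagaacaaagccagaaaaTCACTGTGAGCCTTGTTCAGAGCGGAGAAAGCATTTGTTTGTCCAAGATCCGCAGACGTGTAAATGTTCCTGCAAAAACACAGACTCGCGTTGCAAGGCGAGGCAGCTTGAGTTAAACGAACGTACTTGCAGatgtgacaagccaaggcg
Vegfb 101-base stretch, chr19:6985496-6985596: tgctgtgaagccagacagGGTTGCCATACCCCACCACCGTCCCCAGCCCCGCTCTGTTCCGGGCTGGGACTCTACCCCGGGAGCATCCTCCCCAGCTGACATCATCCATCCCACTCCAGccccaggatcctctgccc
Vegfa junction without both exons, chr17:46018862-46024082: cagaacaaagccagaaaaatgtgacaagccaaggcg
The Vegfa model of 3530 bases holds both the 72-base and the 132-base exon and encodes Vegfa188, the forms being named for the residues left after the signal peptide is removed. The model of 3458 bases holds the 132-base exon alone and encodes Vegfa164. The model of 3326 bases holds neither and encodes Vegfa120. The exons encode stretches that bind heparin, so Vegfa188 is held at the cell surface and matrix, Vegfa120 diffuses, and Vegfa164 does both. The longer of the 2 Vegfb models, of 1282 bases, holds the 101-base stretch, and the shorter, of 1181 bases, lacks it. The shift in reading frame gives the shorter Vegfb model a heparin-binding tail that the longer one does not encode.

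The inferred depth was 46.7M to 51.5M fragments in the vector libraries and 41.0M to 47.3M in the S37A libraries. Values are FPKM (fragments scaled to transcript length and library depth), summed over the transcript models of a symbol, so levels of different genes are per length. Ctnnb1, the gene of β-catenin, stood at 116, 99.1 and 116 FPKM in vector libraries 1 to 3 and at 132, 144 and 146 FPKM in S37A libraries 1 to 3, a log2 difference of 0.35 (limma adjusted p = 0.0158). Reads of the introduced and the endogenous gene are not separated in these values, and the adjusted p was 0.0534 without S37A library 2 and 0.0585 without S37A library 3, within a range of 0.00322 to 0.0585 over its alternatives. Axin2, a feedback target of β-catenin, went from 0.131 ± 0.0385 FPKM (SD, n = 3) to 2.95 ± 0.296 FPKM (limma adjusted p = 3.85e-05), and passed the filter only through the S37A libraries. Of 7 genes listed to check β-catenin, 5 were tested, and Ctnnb1, Axin2, Nkd1 and Tcf7 were called higher. Lef1 did not pass the test (3.17 and 3.41 FPKM, limma adjusted p = 0.338). Sp5 (0.358 and 0.357 FPKM) and Notum (0.0279 and 0.0753 FPKM) lay below the filter. Across the 12022 genes tested, 729 were called higher in S37A (6.06%) and 2393 lower (19.9%), which is 26.0% in either direction. The total of 3122 fell to 1669 without vector library 2, 1730 without vector library 3, 1973 without S37A library 1, 1225 without S37A library 2 and 904 without S37A library 3. Over all tested genes the log2 difference had a median of -0.07 on the deposited scale and -0.0026 after median-ratio scaling, and this rescaling made 57.2% of calls higher, against 23.4% on the deposited scale.

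Of the 9 VEGF genes, 2 ligands fell in the S37A cells, Vegfc and Vegfb, and the other 7 genes did not pass the test in either direction. Vegfc was 66.7% and Vegfb 79.7% of its mean vector level, while the kinase receptors and Nrp1 differed by at most 0.08 on log2(FPKM + 1). Counted against the background of 19.9% of all tested genes called lower and 6.06% called higher, the members had 2 of 9 lower and 0 of 9 higher. A count of 2 is close to the share of all genes called lower, so the count itself is no result about the family. The same 2 members were those whose groups did not overlap, both lower in S37A, beside 36.5% of all tested genes with every S37A value lower and 47.8% without overlap in either direction. The size of the Vegfc difference lay further out: 116 of 12022 genes (0.965%) had a log2 difference at or below it. This rank is on log2(FPKM + 1), which understates changes of low genes, so low genes with larger relative falls can be missing from the 116. The median log2 difference of the 9 genes was -0.01, beside -0.07 over all tested genes. At an unadjusted p under 0.05 there were 3 members, Vegfc, Vegfb and Pgf. Leaving out any 1 library, and each of the other settings tried, left 2 members called lower and 0 higher.

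**Figure D1:**
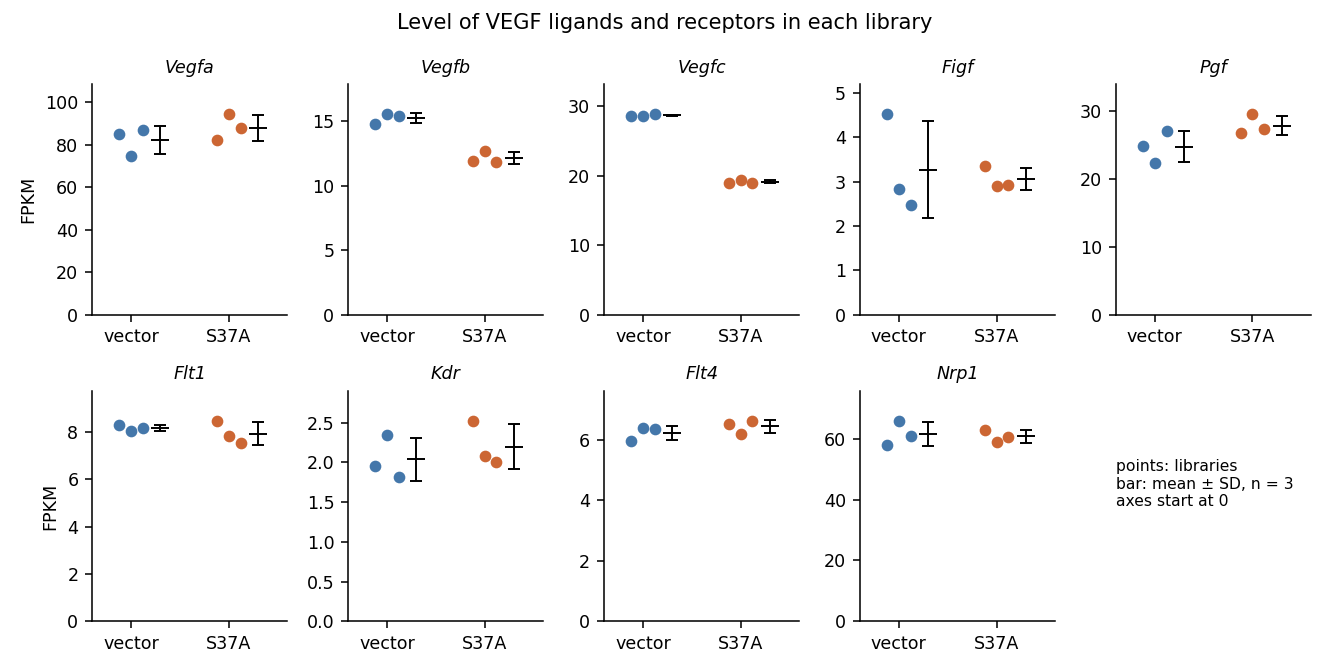
FPKM of the 9 VEGF ligand and receptor genes in each of the 3 vector and 3 S37A libraries, 1 panel a gene, with points for libraries and bars for the mean ± SD. The S37A points lie below every vector point for Vegfc (19.0 to 19.4 against 28.6 to 28.8 FPKM) and Vegfb (11.8 to 12.7 against 14.8 to 15.5 FPKM), and the groups overlap in the 7 other panels.

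Vegfc, the main ligand of Flt4 and a growth factor of lymphatic vessels, was measured at 28.6, 28.6 and 28.8 FPKM in vector libraries 1 to 3 and at 19.0, 19.4 and 19.0 FPKM in S37A libraries 1 to 3. The groups lay far apart relative to their spread, with 28.7 ± 0.127 FPKM in vector and 19.1 ± 0.271 FPKM in S37A cells (SD, n = 3). That spread was narrower than the interval of a single value, which was 27.6 to 30.0 FPKM in vector library 3. In S37A library 2 the interval was 18.4 to 20.5 FPKM. Variation of Vegfc between separate cultures was not tested. The log2 difference was -0.56, with a 95% interval of -0.63 to -0.49, a standard error of 0.03 and a limma adjusted p of 0.000229. Over its 16 alternatives the log2 difference stayed between -0.58 and -0.49 and the adjusted p between 4.39e-05 and 0.00934. About 1500 to 2800 inferred fragments stood behind each library's value. The exact two-sided permutation test of its 6 values gave 0.1, the smallest p that 3 against 3 libraries allow. Vegfc lies at chr8:54077532-54186454 in mm10 and has 1 transcript model in the tables. RefSeq places the predicted gene Gm33153 over 6212 bases of its first part, and since the library kit (SMART-Seq v4) does not mark strand, reads shared with a transcript of that gene could not be told apart. In bulk RNA such as this, fewer cells of a type and less RNA per cell cannot be told apart.

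Vegfb, a ligand of Flt1 with a part in fatty acid uptake and cell survival, stood at 14.8, 15.5 and 15.4 FPKM in vector libraries 1 to 3. In S37A libraries 1 to 3 it stood at 11.9, 12.7 and 11.8 FPKM, each below the lowest vector value. The means were 15.2 ± 0.352 and 12.1 ± 0.452 FPKM (SD, n = 3), a log2 difference of -0.31 with a 95% interval of -0.40 to -0.21 and a standard error of 0.04 (limma adjusted p = 0.00607). The adjusted p stayed between 0.00143 and 0.0351 over 16 alternatives. The gene lies at chr19:6982472-6987651 in mm10, and about 650 to 1000 inferred fragments stood behind each value.

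The longer Vegfb model, which holds the 101-base stretch printed above, accounted for most of this gene. It was listed at 10.4, 10.3 and 11.8 FPKM in vector libraries 1 to 3 and at 8.37, 8.14 and 8.21 FPKM in S37A libraries 1 to 3, with no overlap. Its log2 difference was -0.36 (95% interval -0.50 to -0.22, standard error 0.06), with a limma adjusted p of 0.0308 over the 14550 transcript models tested, of which 5.29% were called lower, 2.62% higher and 7.91% in either direction. That call depended on the libraries: the adjusted p was 0.0646 without vector library 2, 0.0521 without vector library 3, and 0.0742, 0.102 and 0.113 without S37A library 1, 2 and 3, against 0.0487 without vector library 1. The shorter model was listed at 4.42, 5.17 and 3.55 FPKM and at 3.55, 4.53 and 3.64 FPKM, overlapping values with a log2 difference of -0.13 (95% interval -0.46 to 0.21, limma adjusted p = 0.555). The longer model made up 71.3% ± 5.18 of Vegfb in vector and 67.9% ± 3.21 in S37A cells (SD, n = 3), shares that overlapped. The exact permutation test of the share gave 0.400, or 0.750 after Benjamini-Hochberg adjustment over the 9 model shares tested.

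Vegfa, the principal growth factor of blood vessels, was the most abundant of the 9 genes in every library. Its values were 85.1, 74.5 and 86.9 FPKM in vector libraries 1 to 3 and 82.0, 94.2 and 87.7 FPKM in S37A libraries 1 to 3. Vector library 2 was the lowest and S37A library 2 the highest, and the groups overlapped. These libraries also had the greatest (51.5M) and the smallest (41.0M) inferred depth, and a part of depth in these values was not tested. The means of 82.2 ± 6.69 and 87.9 ± 6.11 FPKM (SD, n = 3) gave a log2 difference of 0.10 with a 95% interval of -0.07 to 0.26 (limma adjusted p = 0.325; exact permutation p = 0.400). With about 13200 to 14400 inferred fragments behind each value, counting error was small beside this spread. The interval spans 0 and leaves room for a change in either direction. Vegfa lies at chr17:46016993-46032377 in mm10.

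Of the 9 Vegfa transcript models in the tables, 6 were listed at 0 in all 6 libraries. Of these, 3 were copies of the listed models that are 1 base longer, and the other 3, of 2637 to 2841 bases, begin at a downstream start. The Vegfa164 model was the most abundant, at 37.7, 34.4 and 37.9 FPKM in vector libraries 1 to 3 and 33.1, 39.3 and 37.0 FPKM in S37A libraries 1 to 3. The Vegfa188 model stood at 22.1, 17.6 and 24.3 FPKM and at 20.9, 26.0 and 23.5 FPKM. Both overlapped between the groups, with limma adjusted p of 0.946 for Vegfa164 and 0.516 for Vegfa188.

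The Vegfa120 model, which has the direct junction printed above, was listed at 25.2, 22.5 and 24.7 FPKM in vector libraries 1 to 3 and at 28.0, 28.8 and 27.2 FPKM in S37A libraries 1 to 3. Every S37A value lay above every vector value, with means of 24.2 ± 1.43 and 28.0 ± 0.819 FPKM (SD, n = 3). The intervals of single values did overlap, at 23.8 to 26.6 FPKM in vector library 1 and 25.6 to 28.7 FPKM in S37A library 3. Of all tested genes, 11.3% had every S37A value higher, and that share was not computed over transcript models. The log2 difference of 0.21 (95% interval 0.08 to 0.33, standard error 0.05) did not pass the test over all models on the deposited scale, with a limma adjusted p of 0.0618. After median-ratio scaling the difference was 0.28 and the adjusted p 0.0473, and without any 1 library it was 0.0692 to 0.161. As a share of Vegfa, the Vegfa120 model took 29.6%, 30.2% and 28.5% in vector libraries 1 to 3 and 34.1%, 30.6% and 31.0% in S37A libraries 1 to 3. The Vegfa164 model took 44.4%, 46.1% and 43.6% and then 40.4%, 41.8% and 42.2%, and the Vegfa188 model averaged 25.8% ± 2.15 and 26.6% ± 1.09 (SD, n = 3). The shares of Vegfa120 and Vegfa164 each separated the groups, in opposite directions, with a narrow gap for Vegfa120 (30.2% against 30.6%). Their exact permutation p was 0.1 each, the smallest possible, and 0.450 after Benjamini-Hochberg adjustment over the 9 shares.

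**Figure D2:**
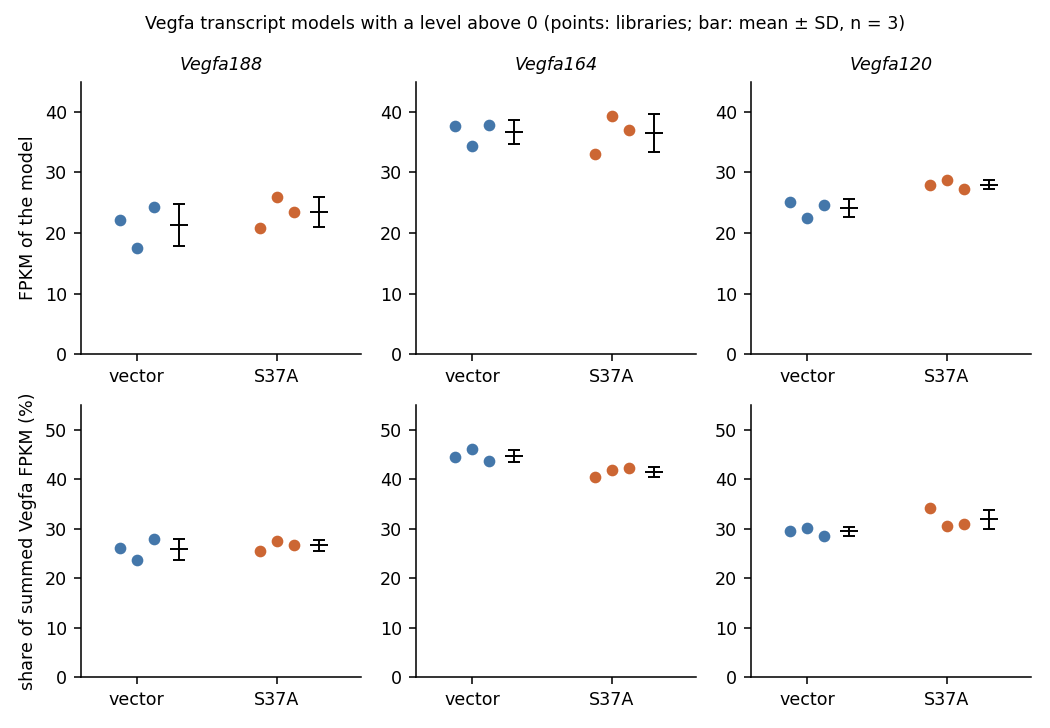
FPKM of the 3 listed Vegfa transcript models and their share of the gene in percent, for the 3 vector and 3 S37A libraries, with points for libraries and bars for the mean ± SD. The Vegfa120 values lie at 27.2 to 28.8 FPKM in S37A and 22.5 to 25.2 FPKM in vector cells, while the Vegfa164 and Vegfa188 values overlap in FPKM.

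Pgf, a ligand of Flt1 named for the placenta and also made by fibroblasts, was measured at 24.9, 22.4 and 27.0 FPKM in vector libraries 1 to 3 and at 26.7, 29.5 and 27.4 FPKM in S37A libraries 1 to 3. Vector library 3 lay inside the S37A range, so the groups overlapped by this library. The means were 24.8 ± 2.31 and 27.9 ± 1.44 FPKM (SD, n = 3), and the log2 difference of 0.16 (95% interval 0.0022 to 0.33) had an unadjusted p of 0.0477 and a limma adjusted p of 0.113. Over the alternatives the adjusted p lay between 0.0551 and 0.279. The model of 1599 bases carried nearly the whole value, and a second model of 1266 bases was listed at 3.35 FPKM in vector library 1 and at 0 in the 5 other libraries. The gene lies at chr12:85166639-85177313 in mm10.

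Figf, the second ligand of Flt4, was the least abundant ligand. It stood at 4.51, 2.83 and 2.47 FPKM in vector libraries 1 to 3 and at 3.35, 2.89 and 2.93 FPKM in S37A libraries 1 to 3. Vector library 1 was higher than the other 5, and the vector values enclosed the S37A values. The means of 3.27 ± 1.09 and 3.06 ± 0.253 FPKM (SD, n = 3) differed by -0.05 on the log2 scale (95% interval -0.42 to 0.33, limma adjusted p = 0.841), a difference that was 0.01 after median-ratio scaling and 0.15 at the highest with 1 library left out. Only about 200 to 370 inferred fragments stood behind each value, the fewest among the 9 genes. Both Figf models overlapped between the groups, with 1.34 ± 0.586 and 1.16 ± 0.188 FPKM for the model of 1374 bases and 1.93 ± 0.502 and 1.89 ± 0.0698 FPKM for the model of 1905 bases (SD, n = 3). The gene lies at chrX:164373522-164402650 in mm10.

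Summed over the 5 ligands, the level was 158, 144 and 161 FPKM in vector libraries 1 to 3 and 143, 159 and 149 FPKM in S37A libraries 1 to 3. The totals overlapped, while the shares of Vegfa, Vegfb, Vegfc and Pgf in them did not overlap between the groups. Vegfc took 17.9% to 19.9% of the ligand sum in vector and 12.3% to 13.3% in S37A libraries. Vegfa took 51.8% to 54.1% and then 57.3% to 59.4%, and Pgf 15.6% to 16.8% and then 18.4% to 18.7%. Vegfb took 9.40% to 10.8% and then 7.96% to 8.34%, and Figf averaged 2.12% and 2.04% with overlapping values. Shares of 1 sum are tied to each other and were not tested. The ratio of Vegfa to Vegfc was 2.97, 2.61 and 3.02 in vector libraries 1 to 3 and 4.31, 4.84 and 4.62 in S37A libraries 1 to 3.

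In vector cells the order of levels per length was Vegfa, Nrp1, Vegfc, Pgf, Vegfb, Flt1, Flt4, Figf and Kdr. In S37A cells Pgf and Vegfc changed places. Vegfc lay above Pgf in vector libraries (28.6 to 28.8 against 22.4 to 27.0 FPKM) and below it in S37A libraries (19.0 to 19.4 against 26.7 to 29.5 FPKM). No range of a gene touched that of its neighbour in either order, and the closest neighbours were Figf and Kdr, at 2.47 to 4.51 and 1.82 to 2.34 FPKM in vector cells.

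The 3 receptor kinases were all expressed at low levels. Flt1, which binds Vegfa, Vegfb and Pgf and whose soluble form traps them, stood at 8.29, 8.06 and 8.16 FPKM in vector libraries 1 to 3 and at 8.46, 7.81 and 7.52 FPKM in S37A libraries 1 to 3. The S37A values enclosed the vector values, and the log2 difference was -0.04 (95% interval -0.15 to 0.07, limma adjusted p = 0.563) and 0.03 after median-ratio scaling. The tables hold 1 Flt1 model, so its soluble form was not separated. Kdr, the main signalling receptor of Vegfa, was the lowest of the 9 genes, at 1.96, 2.34 and 1.82 FPKM and then 2.52, 2.08 and 2.00 FPKM. These groups overlapped too (log2 difference 0.08, 95% interval -0.13 to 0.28, limma adjusted p = 0.537).

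Flt4, the receptor of Vegfc and Figf, was measured at 5.95, 6.38 and 6.34 FPKM in vector libraries 1 to 3 and at 6.51, 6.18 and 6.61 FPKM in S37A libraries 1 to 3. Its values overlapped, with a log2 difference of 0.04 (95% interval -0.07 to 0.15, limma adjusted p = 0.522). Nrp1, the co-receptor, was far more abundant than the kinases, at 57.8, 65.8 and 60.9 FPKM and then 63.0, 58.8 and 60.6 FPKM. The S37A values lay inside the vector range, and the log2 difference of -0.01 (95% interval -0.14 to 0.11, limma adjusted p = 0.851) was 0.06 after median-ratio scaling. Every 95% interval of the 4 receptors lay within -0.15 and 0.28 on log2(FPKM + 1) of the deposited values. That scale understates relative changes of low genes, most of all for Kdr, which averaged 2.04 and 2.20 FPKM. Larger relative changes of Kdr can therefore lie inside its interval, and its log2 difference was 0.11 with a pseudocount of 0.1. In mm10, Flt1 lies at chr5:147562196-147725988, Kdr at chr5:75933270-75978428, Flt4 at chr11:49609679-49652739 and Nrp1 at chr8:128359073-128505475. RefSeq lists the non-coding genes Gm35383, Gm32727 and Gm32643 over parts of Flt1, Kdr and Nrp1, whose reads could not be told apart without strand.

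**Figure D3:**
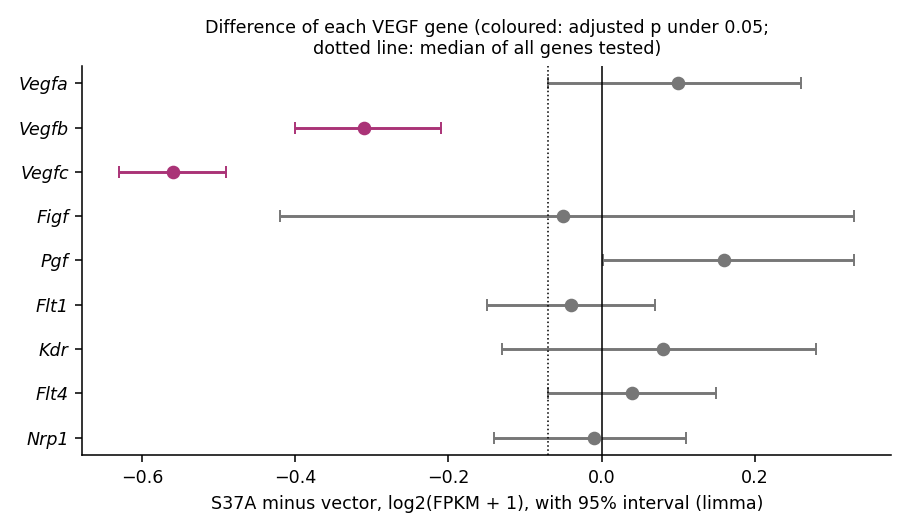
Log2 difference, S37A minus vector, of the 9 VEGF ligand and receptor genes, with points for the limma estimate on log2(FPKM + 1), bars for its 95% interval, colour for an adjusted p under 0.05 and a dotted line at the median of all tested genes. The intervals of Vegfc (-0.63 to -0.49) and Vegfb (-0.40 to -0.21) lie below 0, and those of the receptors lie within -0.15 and 0.28.

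The kinase receptors are expressed chiefly by endothelial cells, so markers of the cell types that such a culture can hold were read beside the receptors. Of 12 endothelial markers, 11 were tested and 0 were called in either direction by limma, with 1 lower at an unadjusted p under 0.05, and their summed level was 119 to 139 FPKM in vector and 117 to 122 FPKM in S37A libraries. Emcn led that list (76.1 and 68.6 FPKM, groups that did not overlap, limma adjusted p = 0.0696, range over alternatives 0.0172 to 0.330). Without vector library 1 limma called 2 endothelial markers lower, Emcn (adjusted p = 0.0317) and Egfl7 (0.0214, named after its value was seen), and with sample weights it called Emcn, Egfl7 and Cdh5 lower (0.0172, 0.0417 and 0.0359). The defining markers Cdh5 and Pecam1 stood at 16.7 and 15.7 FPKM and at 6.31 and 6.32 FPKM. Of 5 lymphatic endothelial markers, which include Flt4, 3 were tested and 1 was called lower, Pdpn (190 ± 5.18 and 165 ± 8.21 FPKM, SD, n = 3; limma adjusted p = 0.0179, range over its alternatives 0.00637 to 0.0620), and without S37A library 3 its adjusted p was 0.0575. Pdpn is also made by fibroblasts. Without it the lymphatic sum was 6.99 to 7.32 FPKM in vector and 6.97 to 7.39 FPKM in S37A libraries, but most of this sum was Flt4 itself. The defining lymphatic marker Prox1 was below the filter, at 0.422 and 0.276 FPKM. Its groups did not overlap (0.367 to 0.489 and 0.259 to 0.300 FPKM). Lyve1 (0.561 and 0.497 FPKM) and Ccl21a (0.00492 and 0.00549 FPKM) overlapped. With no filter, limma called 2 of the 5 lymphatic markers lower, beside 1718 of 19606 genes.

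Markers of other cell types did move with the groups, beside a background of 6.06% of all tested genes called higher and 19.9% lower. Of 12 myeloid markers, 8 of the 10 tested were called higher and 0 lower. Among those called, C1qa, C1qb and C1qc averaged 0.493, 0.372 and 0.478 FPKM in vector cells and passed the filter of 0.5 FPKM only through the S37A libraries. The myeloid markers summed to 23.8 to 30.0 FPKM in vector and 60.8 to 68.9 FPKM in S37A libraries. Lyz2, a lysozyme of macrophages, led them (14.1 ± 1.91 and 36.7 ± 2.63 FPKM, SD, n = 3; limma adjusted p = 0.000847), while Ptprc, the pan-leukocyte marker, was near 0 at 0.0948 and 0.138 FPKM. Of 8 smooth muscle and pericyte markers, 7 were tested and all 7 were called higher, with sums of 6105 to 6503 and 7092 to 7459 FPKM. That count was 4 without vector library 3 or S37A library 1 and 3 without S37A library 2 or 3. The most abundant of these, Acta2, had a limma adjusted p of 0.0267 (range over its alternatives 0.00865 to 0.276), which was 0.0680 to 0.0744 without vector library 3 or any 1 S37A library. Of 9 fibroblast and stromal markers, 8 were tested, with Thy1 called higher and Pdgfra lower (3 higher and 0 lower after median-ratio scaling, 3 and 1 without vector library 1, 1 and 0 without S37A library 3), and sums of 4078 to 4678 and 4752 to 5208 FPKM, so markers of the labelled stromal cells were abundant in both groups. Epithelial markers (6 of 7 tested, 0 called by limma, 0 at an unadjusted p under 0.05, 1 higher without S37A library 1) summed to 13.1 to 19.2 and 10.5 to 20.5 FPKM, and glial markers (2 of 5 tested, 0 called and 0 at an unadjusted p under 0.05) to 2.64 to 3.25 and 2.15 to 3.09 FPKM. The part of these marker shifts in the lower Vegfc and Vegfb was not tested.

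**Figure D4:**
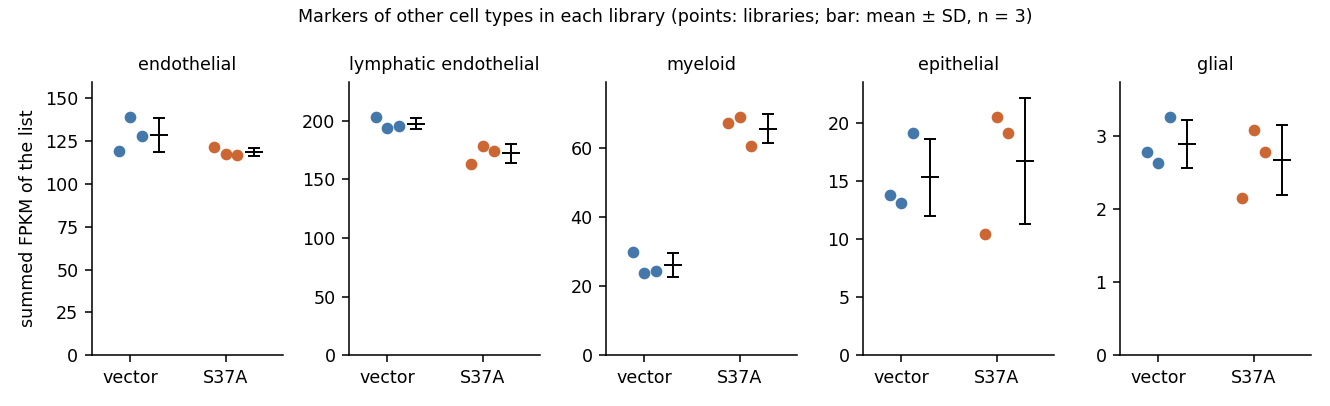
Summed FPKM of the endothelial, lymphatic endothelial, myeloid, epithelial and glial marker lists, 1 panel a list, with points for the 3 vector and 3 S37A libraries and bars for the mean ± SD. The myeloid sums lie at 60.8 to 68.9 FPKM in S37A and 23.8 to 30.0 FPKM in vector libraries, and the endothelial sums overlap.

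Beyond the ligands and receptors, 97 other genes of the pathway were read in 8 lists. Of these, 86 were tested and limma called 15 higher and 14 lower, 57 passed in neither direction, and their median log2 difference was 0.02 beside -0.07 over all tested genes. As shares of the tested genes the background is again 6.06% higher and 19.9% lower. The split depended on the scale: median-ratio scaling gave 27 higher and 5 lower. All 12022 tested genes gave 1265 higher and 945 lower under that scaling, the background for each list below. Without vector library 2 the counts were 7 higher and 8 lower, without vector library 3 they were 9 and 9, without S37A library 2 they were 3 and 6, and without S37A library 3 they were 5 and 3. Without vector library 1 or S37A library 1 the counts were 11 and 12 or 11 and 10. Over all genes the counts were 467 and 1202 without vector library 2 and 475 and 1255 without vector library 3. They were 358 and 867 without S37A library 2 and 298 and 606 without S37A library 3. Without vector library 1 or S37A library 1 they were 747 and 2401 or 600 and 1373.

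The proteins that process Vegfc come first, because Vegfc and Figf are secreted as precursors. Of 8 genes for their maturation, 6 were tested, 1 was higher and 2 lower. Ccbe1, a secreted cofactor that brings the protease Adamts3 to the Vegfc precursor, fell along with Vegfc, from 26.1, 24.8 and 26.2 FPKM in vector libraries 1 to 3 to 19.4, 19.1 and 19.1 FPKM in S37A libraries 1 to 3. The groups did not overlap, and the S37A mean was 74.7% of the vector mean (log2 difference -0.40, limma adjusted p = 0.00179, range over 16 alternatives 0.000267 to 0.0211). Adamts3 itself was below the filter, at 0.116 and 0.0855 FPKM, and Pcsk7 was listed at 0. Ctsd, a cathepsin that can cleave both precursors, was lower at 697 ± 13.3 against 760 ± 17.6 FPKM (SD, n = 3; limma adjusted p = 0.0366, range over alternatives 0.0159 to 0.383), a call lost without any 1 library (0.0604 to 0.139) and under median-ratio scaling (0.383). Pcsk5, a proprotein convertase, was higher at 9.61 ± 0.754 against 7.58 ± 0.795 FPKM (SD, n = 3; limma adjusted p = 0.0304, range over alternatives 0.00472 to 0.0908), with 0.0768 to 0.0908 without vector library 2 or 3 or S37A library 2 or 3.

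Among 10 co-receptors and binding partners, 9 were tested, 3 were higher and 0 lower (1 lower without S37A library 1). Sdc2, a heparan sulfate proteoglycan that binds Vegfa, rose from 42.5 ± 0.740 to 49.2 ± 1.08 FPKM (limma adjusted p = 0.00925). Itgb1, an integrin chain found beside VEGF receptors at the cell surface, rose from 783 ± 3.65 to 912 ± 48.6 FPKM (limma adjusted p = 0.0155), and both calls held in each alternative. Ctgf, a matrix protein that binds Vegfa, rose from 1244 ± 52.2 to 1448 ± 34.5 FPKM (all SD, n = 3; limma adjusted p = 0.0142, range over alternatives 0.00707 to 0.0551), with 0.0505 without S37A library 2. Nrp2, the neuropilin that pairs with Flt4, could not be tested because its estimate failed in 2 libraries.

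Most class 3 semaphorins share the neuropilins with the VEGF ligands. Of 12 semaphorin and plexin genes, 10 were tested, 1 was higher and 2 lower, against 2 higher and 1 lower after median-ratio scaling. Sema3c rose from 5.21 ± 0.496 to 6.90 ± 0.643 FPKM (limma adjusted p = 0.0210, range over alternatives 0.00534 to 0.0597). Sema3a fell from 11.9 ± 1.33 to 9.15 ± 0.539 FPKM (0.0216, range 0.00425 to 0.0706), and Sema3e, a ligand of Plxnd1, from 16.7 ± 2.68 to 11.8 ± 1.53 FPKM (all SD, n = 3; limma adjusted p = 0.0309, range 0.00698 to 0.0887). These calls were fragile. Sema3c was lost without vector library 2 (0.0580), vector library 3 (0.0597) or S37A library 2 (0.0531), and Sema3a without S37A library 2 (0.0706) or 3 (0.0688). Sema3e was lost without vector library 2 (0.0617), vector library 3 (0.0581), S37A library 2 (0.0887) or S37A library 3 (0.0876), and under median-ratio scaling (0.0604).

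Vegfa is a known target of hypoxia-inducible factor (HIF), and of 9 genes of oxygen sensing and HIF factors, 8 were tested, 1 was higher and 2 lower. Vhl, which marks HIF for degradation, fell from 9.76 ± 0.272 to 8.18 ± 0.0443 FPKM (limma adjusted p = 0.010) and stayed called in each alternative. Egln3, a prolyl hydroxylase that is itself a HIF target, rose from 2.88 ± 0.115 to 3.47 ± 0.0734 FPKM (limma adjusted p = 0.0203, range over alternatives 0.00920 to 0.0758), with 0.0514 without vector library 2, 0.0633 without S37A library 2 and 0.0758 without S37A library 3. Hif1a, the HIF subunit regulated by oxygen, was lower at 47.7 ± 1.02 against 52.7 ± 2.16 FPKM (all SD, n = 3; limma adjusted p = 0.0396, range over alternatives 0.0397 to 0.274), but this call was lost in 13 of 16 alternatives, among them median-ratio scaling (0.274) and leaving out any 1 library other than vector library 3 (0.0719 to 0.106).

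Of 12 HIF target genes, 10 were tested, 4 were higher and 0 lower, with a median log2 difference of 0.15. Of all tested genes 6.06% were called higher and 19.9% lower. By setting, 6 targets were higher after median-ratio scaling and 5 after quantile normalization. Only 1 was higher with no filter, no trend or the most abundant model only, and 0 with the replicate block. P4ha2 and P4ha1, collagen prolyl hydroxylases, rose from 54.8 ± 3.74 to 66.1 ± 3.40 FPKM (limma adjusted p = 0.0203, range over alternatives 0.00925 to 0.0676) and from 100 ± 4.84 to 111 ± 2.17 FPKM (0.0394, range 0.00878 to 0.118). Bnip3, a mitochondrial protein of mitophagy, rose from 16.5 ± 0.898 to 18.7 ± 0.901 FPKM (limma adjusted p = 0.0469, range 0.0192 to 0.147). The 4th, Slc2a1, the glucose transporter Glut1, named after its value was seen, went from 70.0 ± 4.73 to 79.9 ± 3.85 FPKM (all SD, n = 3; limma adjusted p = 0.0476). The number called higher was 2 without vector library 1, 1 without vector library 2, 4 without vector library 3, 3 without S37A library 1 and 0 without S37A library 2 or 3. Without S37A library 2 the adjusted p was 0.0671 for P4ha2 and 0.114 for Bnip3, and without S37A library 3 it was 0.0676 and 0.147. Bnip3 was lost without vector library 1 (0.0898) or 2 (0.120) as well, and P4ha1 without any library but vector library 1 (0.0679 to 0.118). Vegfa, which belongs with these genes, did not pass the test.

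Of 6 proteins that bind Vegfa mRNA and set its stability, all were tested, 0 were higher and 1 lower, against 1 higher and 0 lower after median-ratio scaling. Khsrp, an RNA-binding protein that promotes decay, fell from 24.3 ± 0.620 to 21.2 ± 0.226 FPKM (SD, n = 3; limma adjusted p = 0.0126, range over alternatives 0.00250 to 0.0545), with 0.0531 without S37A library 3 and 0.0545 after median-ratio scaling. The decay factors Zfp36l2 and Zfp36 stood at 29.3 and 31.9 FPKM (adjusted p = 0.154, range over alternatives 0.0480 to 0.390, the lowest after median-ratio scaling) and at 82.0 and 85.4 FPKM (adjusted p = 0.539).

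Of 28 genes of signalling downstream of the receptors, 27 were tested, 3 were higher and 6 lower on the deposited scale, with a median log2 difference of -0.02. That balance turned with the scale, to 9 higher and 2 lower after median-ratio scaling and 4 and 4 after quantile normalization. Over all tested genes these settings gave 1265 higher and 945 lower, and 1094 and 957. Plcg1, the phospholipase that Kdr activates, fell from 11.8 ± 0.708 to 9.18 ± 0.613 FPKM (limma adjusted p = 0.0119) and stayed called in each alternative. Ptk2, the focal adhesion kinase, fell from 46.5 ± 0.753 to 41.1 ± 0.490 FPKM (limma adjusted p = 0.0115, range over alternatives 0.00271 to 0.0608). Mapk3, the kinase Erk1, fell from 68.3 ± 3.10 to 59.1 ± 0.518 FPKM (all SD, n = 3; limma adjusted p = 0.0141, range 0.00242 to 0.0569). Without S37A library 3 the adjusted p was 0.0517 for Ptk2 and 0.0569 for Mapk3, and after median-ratio scaling it was 0.0608 for Ptk2. The 3 called higher, Prkca, Rac1 and Shb, were named after their values were seen, and had log2 differences of 0.17, 0.15 and 0.15. Their number was 1 without vector library 1, vector library 2 or S37A library 1, and 0 without each of the other 3 libraries. The number called lower was 6, 4 and 4 without vector library 1, 2 and 3, and 4, 3 and 1 without S37A library 1, 2 and 3.

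Of 12 other angiogenic ligands, 10 were tested, 2 were higher and 1 lower. Pdgfc, a platelet-derived growth factor, rose from 15.6 ± 0.576 to 19.8 ± 1.29 FPKM (limma adjusted p = 0.0102) and stayed called in each alternative. Edn1, the vasoconstrictor endothelin 1, rose from 10.4 ± 1.94 to 14.6 ± 1.62 FPKM (limma adjusted p = 0.0394, range over alternatives 0.0264 to 0.104), and was lost without vector library 3 (0.0745) or S37A library 1 (0.102), 2 (0.104) or 3 (0.0576). Hgf, hepatocyte growth factor, fell from 1.05 ± 0.0798 to 0.778 ± 0.0212 FPKM (all SD, n = 3; limma adjusted p = 0.0303, range 0.0173 to 0.0880). That call was lost without any library but vector library 1 (0.0538 to 0.0880) and after median-ratio scaling (0.0588).

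**Figure D5:**
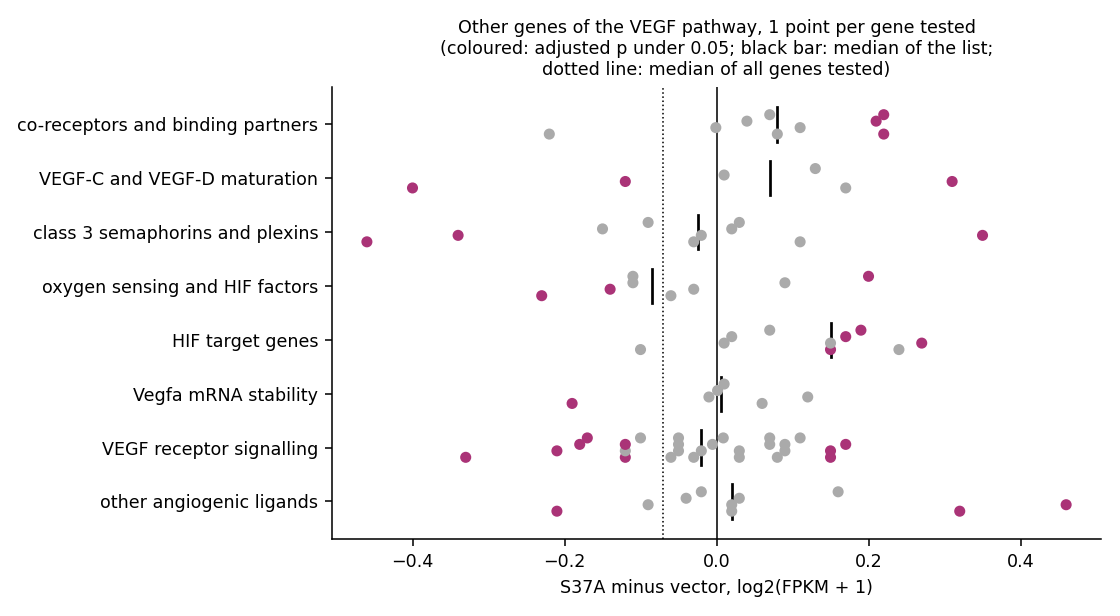
Log2 difference, S37A minus vector, of the tested genes of the 8 pathway lists, 1 row a list, with points for genes (coloured where the limma adjusted p is under 0.05), a bar at each list's median and a dotted line at that of all tested genes. Points lie on both sides of 0 in the lists, with 15 called higher and 14 called lower in all.

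Among all tested genes, the profiles over the 6 libraries closest to that of Vegfc were those of Fgl1, Gdf15 and Micall2. Likeness was the root mean square difference of log2(FPKM + 1) values, each centred on its own mean, and came to 0.054, 0.054 and 0.057. Fgl1 averaged 0.950 FPKM in vector and 0.328 FPKM in S37A cells, Gdf15 10.6 and 6.96 FPKM, and Micall2 7.19 and 4.85 FPKM. The S37A mean of Fgl1 was 34.5% of its vector mean, against 66.7% for Vegfc, so its closeness rests on the 1 added to FPKM. Fgl1 also passed the filter only through the vector libraries. Closest to Vegfa were Tubb3 (0.018), Sh3gl3 (0.027) and Elk3 (0.030). Tubb3 was lowest in vector library 2 and highest in S37A library 2, at 17.7 and 22.7 FPKM, the same libraries as for Vegfa.

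The 250 bases upstream of the start of the 2 ligands that fell are printed here, from RefSeq on GRCm38.p6 and read 5′ to 3′ on the gene's strand, because both genes changed and a common short motif could be looked for. The Vegfc sequence lies on the plus strand, inside the span of Gm33153, and the Vegfb sequence on the minus strand.
Vegfc, chr8:54077282-54077531: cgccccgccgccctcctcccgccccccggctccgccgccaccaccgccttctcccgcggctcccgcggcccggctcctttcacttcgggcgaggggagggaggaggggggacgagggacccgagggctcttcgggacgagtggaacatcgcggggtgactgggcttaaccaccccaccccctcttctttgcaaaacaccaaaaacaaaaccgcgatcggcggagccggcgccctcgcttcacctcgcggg
Vegfb, chr19:6987652-6987901: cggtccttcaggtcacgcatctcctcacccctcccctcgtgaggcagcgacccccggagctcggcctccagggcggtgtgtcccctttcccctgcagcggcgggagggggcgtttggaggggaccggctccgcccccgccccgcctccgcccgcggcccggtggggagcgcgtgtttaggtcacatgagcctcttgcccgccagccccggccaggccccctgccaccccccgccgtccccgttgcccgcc
G and C made up 71.6% of the Vegfc and 76.4% of the Vegfb sequence, against a median of 52.4% over 32817 mouse promoters of this length. Both strands were searched for 4 short motifs. The TCF/LEF core (CTTTGA or CTTTGT), bound by the partners of β-catenin, is in 27.6% of all these promoters, the hypoxia response core ACGTG in 16.6%, the AP-1 site TGANTCA in 6.8% and TATAAA in 12.4%. None of the 4 motifs contains another. None of the 4 was found in the windows of Vegfc or Vegfb. Among the other members, TATAAA was found at -31 to -26 of Flt1 and at -73 to -68 of Figf, and ACGTG at -211 to -207 of the downstream start of Vegfa, counted from the base before the start as -1. The window of the upstream start of Vegfa held none of the 4 motifs.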

How the data were processed

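Oligo(dT)-primed and random-primed cDNA of 6 libraries (SMART-Seq v4, Illumina HiSeq, per the labels' protocols) was processed by the authors with bcl2fastq 1.8.3, TopHat and Cufflinks on mm10, per the submitters' processing notes; the versions of TopHat and Cufflinks and the annotation are not given in the sources used here. The deposited tables hold, per the file headers, FPKM with its interval, a coverage signal, length and status of 34535 transcript models. Read counts are not used here: fragment numbers inferred from the intervals were whole within 0.02 in 86.45% to 87.57% of the models at 10 fragments or fewer but in 9.0% to 9.75% of those above 30, so no count test was run, and depths are approximate and cover counting error only.

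FPKM was summed by symbol, and 5 genes with a status other than OK, Nrp2 among them, did not enter the fit. The 12022 genes averaging 0.5 FPKM or more were fitted on log2(FPKM + 1), a scale that understates changes of low genes, with limma 3.58.1 (R 4.3.3), an intensity trend, no replicate block, and a threshold of 0.05 on p-values adjusted over all genes by Benjamini-Hochberg. Differences are S37A minus vector. Single values had exact two-sided permutation tests (scipy 1.17.1), which cannot go below 0.1 here. Groups came from the sample titles. The replicate numbers are not stated to pair libraries. The alternatives were another pseudocount (0.1), no filter or one at a mean of 5 FPKM, median-ratio scaling, quantile normalization, removal of the 100 most abundant genes, no trend, a replicate block, sample weights, the most abundant model only, and leaving out each library.

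On simulated data with 12022 genes, the S37A against vector test recovered 20.0%, 81.5% and 96.0% of the genes given log2 changes of 0.25, 0.5 and 1, with 0, 6 and 13 other calls, and made 1 call with no change. Whether these recovery rates hold where 26.0% of genes are called, as in the comparison itself, was not tested. The members, lists and markers were chosen with earlier results of these data known. Genes named are the 9 members, Ctnnb1 and Axin2, the 3 genes with the smallest p in each pathway list, the 3 genes most like Vegfa and Vegfc, and the most abundant gene of marker lists. Cdh5, Pecam1, Prox1, Ptprc, Thy1, Pdgfra, Nrp2, Adamts3 and Pcsk7 were added for their role or count. Nkd1, Tcf7, Lef1, Sp5 and Notum complete the list that checks β-catenin. Slc2a1, Prkca, Rac1, Shb, Egfl7, C1qa, C1qb, C1qc, Lyve1 and Ccl21a were added after their values were seen. Positions are 1-based, and 9 of 9 members matched RefSeq symbols.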

Additional observations from a re-analysis of the deposited data

How the results depend on the processing

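The calls of Vegfc and Vegfb kept their direction and passed the test in each of their 16 alternatives, and no other member passed it in any. The number of all genes called was less steady than that, at 1265 higher and 945 lower after median-ratio scaling, 1094 and 957 after quantile normalization, 1238 and 3655 with sample weights, 442 and 1193 with the replicate block, 1503 lower without the 100 most abundant genes, 1491 lower with the most abundant model only, and 298 to 747 higher and 606 to 2401 lower with 1 library left out. The other pathway genes gave 27 higher and 5 lower after median-ratio scaling, 8 lower after quantile normalization, 7 higher with no filter, 9 higher with the most abundant model only, 6 higher and 7 lower with the replicate block, and 3 to 11 higher and 3 to 12 lower with 1 library left out. Of the 7 members that never passed the test, Figf, Flt1, Nrp1 and Vegfa changed sign in an alternative, and Pgf (0.09 to 0.24), Kdr (0.0037 to 0.15) and Flt4 (0.01 to 0.12) did not. The log2 difference of Figf was 0.01 (median-ratio), 0.04 (quantile), 0.08 (sample weights) and -0.18 to 0.15 with 1 library left out, that of Flt1 was 0.03 under both scalings, and that of Nrp1 was 0.06 (median-ratio), 0.02 (quantile), 0.02 (without the 100 most abundant genes) and -0.06 to 0.03 with 1 library left out. Vegfa was at -0.0092 with the most abundant model only, which is Vegfa164, and the Vegfa164 model was at 0.06 (median-ratio), 0.03 (quantile) and -0.06 to 0.06 with 1 library left out. The Figf model of 1374 bases ranged from -0.22 to 0.11 with 1 library left out, and that of 1905 bases was at 0.0036 (pseudocount 0.1), 0.04 (median-ratio), 0.08 (quantile) and -0.10 to 0.13 with 1 library left out. The cause of these shifts was not tested. Libraries with the same replicate number did not deviate together (r = -0.12, 0.02 and 0.10), so the numbers were not taken as pairs. Under the block the longer Vegfb model had a limma adjusted p of 0.113. A filter at a mean of 5 FPKM left 7 members, without Figf and Kdr. The count test was not run. Depth limits Figf and Kdr most, with 200 to 660 inferred fragments a library.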

Other observations

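Nrp2, the neuropilin that binds Vegfc and pairs with Flt4, has 6 transcript models in the deposited tables, and their estimate had a failed status in S37A libraries 1 and 3, so it entered no comparison. Summed over its models, Nrp2 was listed at 56.0, 61.2 and 54.2 FPKM in vector libraries 1 to 3 and at 54.5, 48.5 and 47.2 FPKM in S37A libraries 1 to 3. The models changed places between libraries. The model of 6739 bases was listed at 13.7, 11.5 and 0 FPKM in vector and 16.0, 0 and 14.4 FPKM in S37A libraries, while the model of 6724 bases, which is 15 bases shorter, was listed at 27.6 FPKM in vector library 3 and 25.9 FPKM in S37A library 2 and at 0 in the other 4. The model of 4696 bases was listed at 20.4 to 28.5 FPKM in 5 libraries and at 0 in S37A library 1, where the model of 4711 bases stood at 25.7 FPKM. No value of a single Nrp2 model is therefore compared between the groups.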
